A study of Equus caballus with 6 samples.

Results

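ADORA2A, PNMT, NR3C1, ANXA1, DDIT4, RGS1 and RGS2 are genes through which adrenaline, adenosine and cortisol act on cells or by which the response to them is shaped. They were taken as a fixed set of 7 genes, by the RefSeq transcript that the array file gives for each probe, out of 829 genes that could be named by a symbol in this way. The array carried 18 probes for them among 43603 non-control probes in all. Of the 18 probes, 17 stood well above background on 3 or more of the 6 arrays and were tested, among 29571 probes that met this condition.

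Blood was drawn from the jugular vein of 3 gelded (neutered) warmblood horses, numbered 1, 2 and 4, before and after exercise, and RNA of the white cells of the buffy coat was hybridised to a 1-colour Agilent array, which gave 3 arrays before and 3 after exercise. The labels name no drug treatment and no genotype. They give ages of 11, 7 and 15 years for horses 1, 2 and 4, while the description of the design states a range of 9 to 17 years, so the age of horse 2 lies outside it. The labels of the samples after exercise add a time of 60 min, whereas the protocol has the blood taken directly after the exercise, and the time since exercise is therefore not settled. Each horse was sampled once on each occasion, so the pair of arrays of a horse has no replicate of its own.

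In mammals, exercise releases adrenaline and noradrenaline from the adrenal medulla and the sympathetic nerves, and cortisol from the adrenal cortex. Adrenaline acts on white cells mainly through beta-adrenergic receptors, adenosine acts among others through the receptor encoded by ADORA2A, and both kinds of receptor raise cyclic AMP, which restrains many functions of neutrophils and lymphocytes. Cortisol binds the glucocorticoid receptor inside the cell, which then switches genes on and off in the nucleus. The 7 genes cover the making of adrenaline (PNMT), a receptor of adenosine (ADORA2A), the receptor of cortisol (NR3C1), genes known to respond to glucocorticoids (ANXA1 and DDIT4) and brakes on G protein signalling (RGS1 and RGS2). No adrenergic receptor is among them, so the adrenergic side of the set rests on PNMT alone.

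On each array 64.1% to 69.4% of the non-control spots were clearly above background and 0 were saturated, and with 3 arrays in a group the precision is limited. The 2 arrays of horses 1 and 2 before exercise lay on slide 2, and the other 4 arrays on slide 1. The change within horses 1 and 2 therefore also holds the difference between slides, and the 2 cannot be told apart there, while both arrays of horse 4 lay on slide 1. Of the white-cell genes used to check the tissue, CD44, CD53 and SELPLG could be measured, and all 3 were well above background on all 6 arrays. The probes of DBH and CHGA, which mark the adrenaline-making cells of the adrenal medulla, were not well above background on any array. In a buffy coat, a lower signal from fewer cells of a type and one from less RNA per cell cannot be told apart.

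None of the 7 genes passed the test after exercise, when the 3 arrays after were set against the 3 before. Of their brightest probes 5 had a higher mean after exercise (PNMT, ANXA1, DDIT4, RGS1 and RGS2) and 2 a lower one (ADORA2A and NR3C1). Over all probes, 16818 of the 29570 tested had a higher mean after exercise. Among the 7 genes the largest mean difference belonged to PNMT, at 0.83 on the log2 scale (SE 0.28, n = 3 against 3). The smallest belonged to RGS2, at 0.08 (SE 0.28). PNMT was not well above background on 2 of its 3 arrays before exercise, and with normexp background correction DDIT4 (0.34) came before PNMT (0.33). The count of members called was 0 of 7, and over all probes limma called 0 of 29570, a background of 0%. Without adjustment 855 probes (2.89%) had a p under 0.05, 0.396% of all probes with a higher mean after exercise, and 1 of the 7 genes did, PNMT. On the scaled levels the arrays of the groups overlapped for 6 of the 7 genes, and did not for PNMT and for 7.31% of all probes. The processed signals of PNMT before scaling did overlap. The median difference of the 7 genes was 0.15, against 0.04 for all probes tested. A fit with the horse as a block also called 0 of the 7 genes and 0% of all probes, with limma adjusted p from 0.75 to 0.90 for the brightest probes of the 7 genes. In that fit 6.06% of all probes, and again PNMT alone of the 7 genes, had an unadjusted p under 0.05. The PNMT probe entered the test through the group in which it was higher, so its p in both fits is given as a description.

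All levels below are the log2 of the processed signal minus the 75th percentile of the same array, so that 0 is the 75th percentile, and a negative level is a signal below it. Levels of one probe are compared between arrays only, since different probes bind with different strength. A change is the level after minus the level before exercise, on the same log2 scale.

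**Figure D1:**
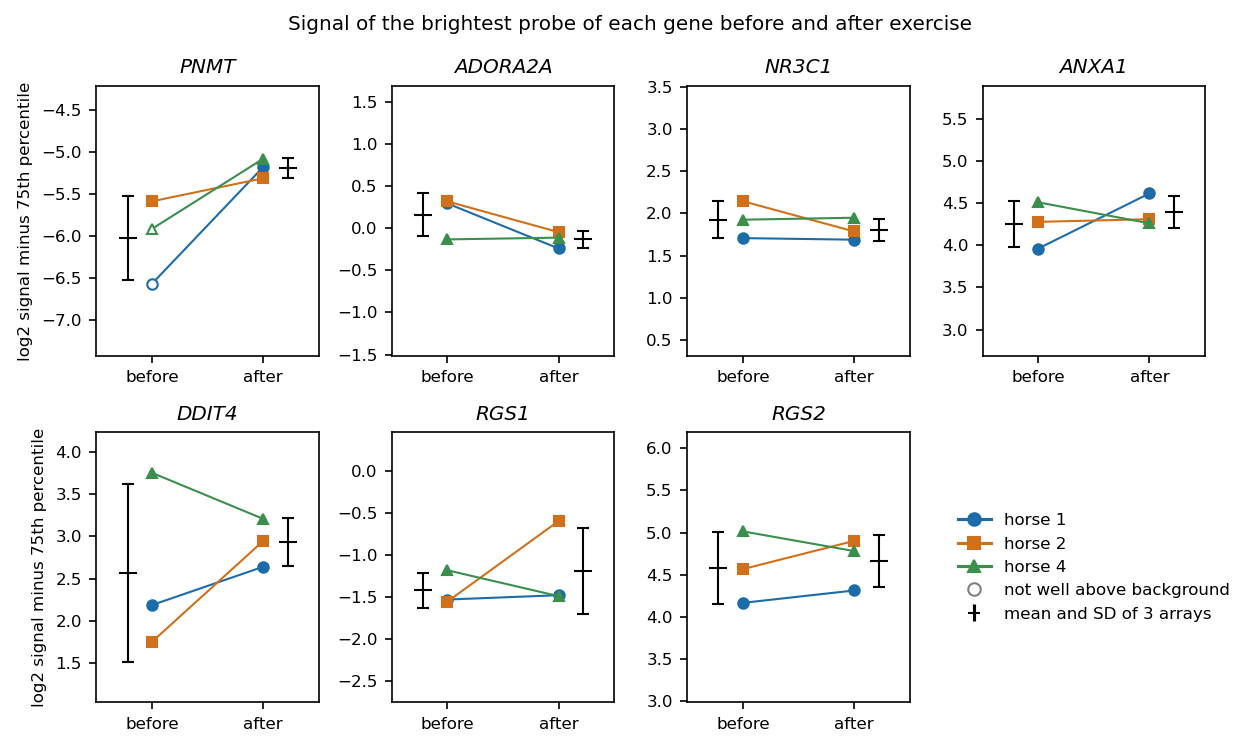
Level of the brightest probe of each gene (vertical axis, log2 signal minus the 75th percentile of the array) before and after exercise, with 1 line per horse and the mean and SD of 3 arrays in black. On this scale, only in PNMT do the 3 arrays after exercise lie above all 3 before, and its processed signals before scaling overlapped. For PNMT 2 arrays before exercise were not well above background. In DDIT4 horse 4 started at 3.75 and the lines converge.

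PNMT encodes phenylethanolamine N-methyltransferase, the enzyme that turns noradrenaline into adrenaline, and is best known from the adrenal medulla. Its measured probe, A_69_P002326, had levels of -6.56, -5.59 and -5.91 in horses 1, 2 and 4 before exercise and of -5.18, -5.31 and -5.08 after it. On this scale all 3 arrays after exercise thus lay above all 3 before, and the spread was wider before (SD 0.50) than after (SD 0.12). Across all probes 3.51% showed the same separation upwards. The change was 1.38 in horse 1, 0.27 in horse 2 and 0.83 in horse 4, and 17.3% of all probes were higher in all 3 horses.

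The signal of PNMT was close to background throughout. It cleared the background mark on 1 of 3 arrays before exercise (horse 2) and on 3 of 3 after it. The probe thus entered the test through the group in which it was higher, and its difference is given as a description. The processed signals of horses 1, 2 and 4 were 19.0, 52.7 and 29.1 before exercise, in the units of the scanner. After exercise they were 53.8, 56.4 and 33.2. In these unscaled signals the groups overlapped, since horse 4 after exercise (33.2) lay below horse 2 before it (52.7). Before scaling between arrays, the log2 change was 1.503 in horse 1, 0.10 in horse 2 and 0.19 in horse 4, and the 75th percentile of the arrays of horse 4 differed by -0.64. Most of the 0.83 of horse 4 thus lay in the scale of its 2 arrays and the lesser part in the signal of the spot. With normexp background correction the mean change was 0.33.

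The other PNMT probe, A_69_P004661, was not well above background on any of the 6 arrays and gives no comparison. In limma the mean change of the measured probe had an unadjusted p of 0.021 and an adjusted p of 0.999, with a 95% interval from 0.17 to 1.49 that is not widened for the number of probes tested. The unadjusted p was 0.12 with the slide as a block (change 0.72), 0.15 with slide and horse as blocks (0.83), 0.18 with normexp (0.33) and 0.16 without horse 1 (0.55), each from limma. The fits with a slide block rest on the array of horse 4 alone before exercise. In limma the unadjusted p was 0.013 with quantile normalization (change 0.97) and 0.018 with the median in place of the 75th percentile (0.92). It was 0.017 without horse 2 (1.11). Array weights give less weight to arrays that deviate more. With them PNMT had a change of 1.17 and an adjusted p of 0.032 in limma, and the other 6 genes were not called. Since the probe entered through the group in which it was higher, this call is given as a description. In that fit 5.54% of all probes were called, those called upwards making up 0.463% of all probes, and the array of horse 1 after exercise carried a weight of 15.3 against 0.22 for that of horse 4 before.

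Other genes of catecholamine action were looked for, but most could not be named on this array. Of the 45 listed genes 9 had a named probe and 4 could be measured, and 0 passed the test in either direction. MAOB, a monoamine oxidase, had a mean change of -0.94 (SE 0.48), made up of -0.10, -2.01 and -0.69 for horses 1, 2 and 4, and cleared the background mark on 2 of the 3 arrays before exercise and on 1 after it. MAOB was lower in all 3 horses, as were 11.5% of all probes, and limma gave it an adjusted p of 0.999. Its probe, near background, entered the test mainly through the group in which it was higher, so these values are given as a description. ADRA2B, DBH, MAOA, CHGA and PDE4D had probes on the array but were well above background on at most 2 arrays.

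ADORA2A encodes an adenosine receptor that dampens the activation of neutrophils and lymphocytes. Its brighter probe, A_69_P000266, was printed 5 times on each array, and its mean level was 0.29, 0.32 and -0.13 in horses 1, 2 and 4 before exercise and -0.24, -0.05 and -0.11 after it. Horses 1 and 2 stood high before exercise only, and the array of horse 4 before exercise lay among those taken after it, so the groups overlapped. The change was -0.53 in horse 1, -0.36 in horse 2 and 0.02 in horse 4. The 5 spots of an array had an SD between 0.06 and 0.10, which measures the scatter of repeated spots on an array and not the spread between samples.

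The mean change of this ADORA2A probe was -0.29 (SE 0.20, 95% interval -0.77 to 0.19, adjusted p = 0.999 in limma). Within slide 1, where the 3 arrays after exercise are set against that of horse 4 alone before it, it was -0.00028. The second ADORA2A probe, A_69_P064071, went the other way. Its levels were -4.84, -4.90 and -4.01 before exercise and -4.47, -2.19 and -4.41 after it, all well above background, with the array of horse 2 after exercise far above the rest. Its change was 0.38, 2.71 and -0.40 in horses 1, 2 and 4, with a mean of 0.90 (SE 0.64, adjusted p = 0.999 in limma). The 2 probes thus had opposite signs in each of the 3 horses, and the mean over both was 0.30.

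Of 22 listed genes of adenosine and nucleotide signalling, ADORA2A and P2RY2 were the 2 that could be measured. P2RY2, a receptor for ATP and UTP, had a mean change of 0.08 (SE 0.28), made up of -0.21, 0.51 and -0.06 for horses 1, 2 and 4. None of its 5 probes had the other sign.

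**Figure D2:**
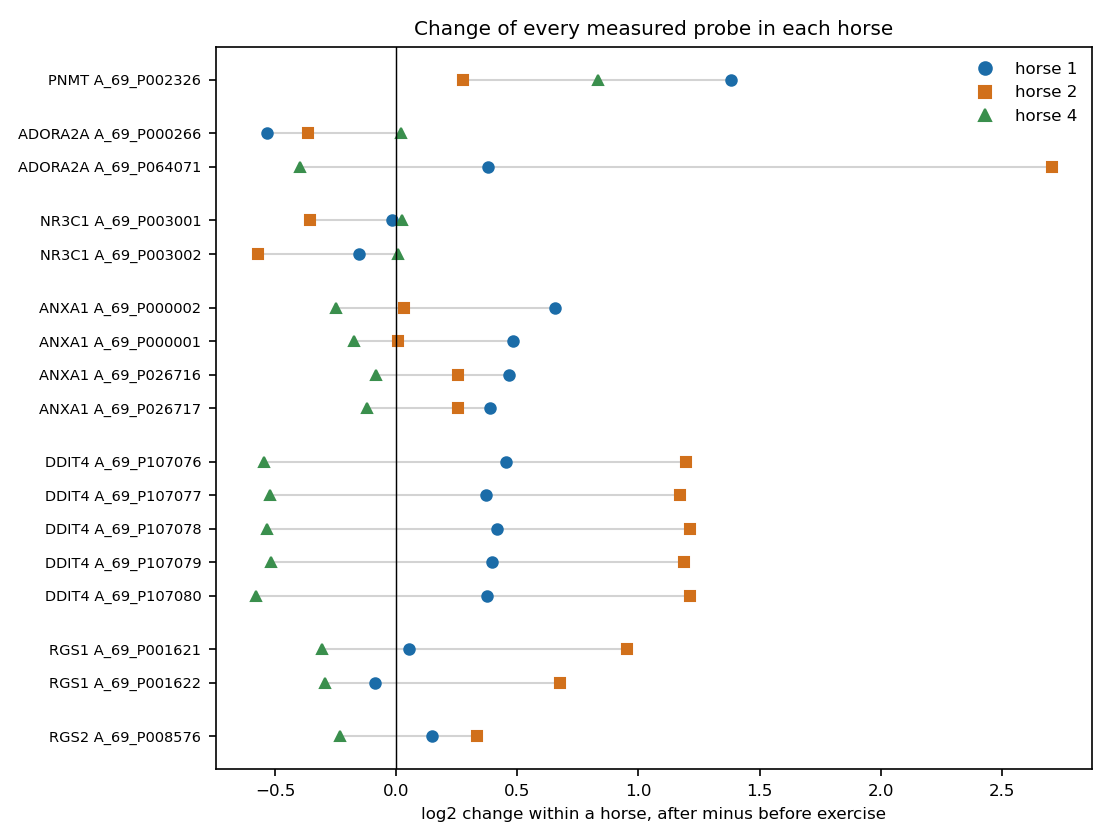
Change of each of the 17 measured probes within each horse (horizontal axis, log2 level after minus before exercise), 1 symbol per horse. The 5 DDIT4 probes fall on nearly the same 3 values, 0.37 to 0.45, 1.17 to 1.21 and -0.58 to -0.52 in horses 1, 2 and 4, while the 2 ADORA2A probes lie on opposite sides of 0 in each horse.

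NR3C1 encodes the glucocorticoid receptor, through which cortisol acts in nearly all cells. Its brightest probe, A_69_P003001, had levels of 1.71, 2.14 and 1.93 in horses 1, 2 and 4 before exercise and of 1.69, 1.79 and 1.95 after it. The array of horse 2 before exercise was the highest, the arrays of horses 1 and 4 hardly differed between the occasions, and the groups overlapped. The mean change was -0.12 (SE 0.20, 95% interval -0.59 to 0.35, adjusted p = 0.999 in limma), made up of -0.02, -0.36 and 0.02 in horses 1, 2 and 4. The second probe gave -0.16, -0.57 and 0.01, so both probes placed the difference in horse 2. Without horse 2 the mean change of the brightest probe was 0.0024.

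ANXA1 encodes annexin A1, a protein induced by glucocorticoids that limits the recruitment of neutrophils through formyl peptide receptors. Its brightest probe, A_69_P000002, had levels of 3.96, 4.28 and 4.51 in horses 1, 2 and 4 before exercise and of 4.61, 4.31 and 4.26 after it. Horse 1 had the lowest level of all 6 arrays before exercise and the highest after it, horse 4 was lower after exercise, and the groups overlapped. The changes were 0.65, 0.03 and -0.25, and the mean was 0.15 (SE 0.22, 95% interval -0.38 to 0.67, adjusted p = 0.999 in limma). The order of the horses was the same in all 4 ANXA1 probes, with 0.39 to 0.65 in horse 1, 0.01 to 0.25 in horse 2 and -0.25 to -0.08 in horse 4. Probe A_69_P000001, printed 5 times per array, had an SD between spots of 0.04 to 0.08 and changes of 0.48, 0.01 and -0.18. Without horse 1 the mean change of the brightest probe was -0.11.

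DDIT4, also called REDD1, encodes an inhibitor of the growth regulator mTORC1 that is induced by glucocorticoids, low oxygen and energy stress. Its brightest probe, A_69_P107076, had levels of 2.19, 1.75 and 3.75 in horses 1, 2 and 4 before exercise and of 2.64, 2.95 and 3.21 after it. Horse 4 was the highest on both occasions, the arrays before exercise lay further apart (SD 1.05) than those after it (SD 0.28), and the groups overlapped. The change was 0.45 in horse 1, 1.20 in horse 2 and -0.55 in horse 4. The 5 probes agreed closely, since their mean changes lay between 0.34 and 0.37, and each of the 5 showed the opposite sign in horse 4.

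The mean change of DDIT4 was 0.37 (SE 0.51, 95% interval -0.84 to 1.58, adjusted p = 0.999 in limma), the widest interval among the brightest probes of the 7 genes. It depended on single arrays. Without the array of horse 4 before exercise it was 0.96 (adjusted p = 0.15 in limma), and without that of horse 2 before exercise -0.04. Within slide 1, where the array of horse 4 is the only one from before exercise, it was -0.82. Whether the change differed between the horses was not tested, since each horse has 1 array per occasion.

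RGS1 and RGS2 encode regulators of G protein signalling, which speed the return of G protein alpha subunits to their inactive state and so shorten signals from receptors such as those for chemokines. RGS1 is known from lymphocytes, where it curbs migration towards chemokines, and RGS2 acts mainly on Gq. In the RefSeq annotation of the assembly TB-T2T they lie on the same chromosome with 2 annotated genes between them, of which 1 is protein-coding, RGS13.

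The brightest RGS1 probe, A_69_P001621, had levels of -1.53, -1.55 and -1.18 in horses 1, 2 and 4 before exercise and of -1.48, -0.60 and -1.49 after it. The array of horse 2 after exercise stood apart from the other 5, which lay between -1.55 and -1.18, and the groups overlapped. The changes were 0.05, 0.95 and -0.31, with a mean of 0.23 (SE 0.29, 95% interval -0.46 to 0.93, adjusted p = 0.999 in limma). The second probe had -0.09, 0.68 and -0.30 in the same horses. Without the array of horse 2 after exercise the mean change of the brightest probe was -0.06, and without both arrays of that horse -0.13.

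The RGS2 probe, the only one for that gene, had levels of 4.17, 4.57 and 5.01 in horses 1, 2 and 4 before exercise and of 4.31, 4.90 and 4.78 after it. The horses differed more from each other than the occasions did, and the groups overlapped. The changes were 0.15, 0.33 and -0.23, with a mean of 0.08 (SE 0.28, 95% interval -0.59 to 0.76, adjusted p = 0.999 in limma). The interval was narrower in the fit that blocks by horse, -0.40 to 0.57. Quantile normalization turned the sign of the mean, to -0.020.

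**Figure D3:**
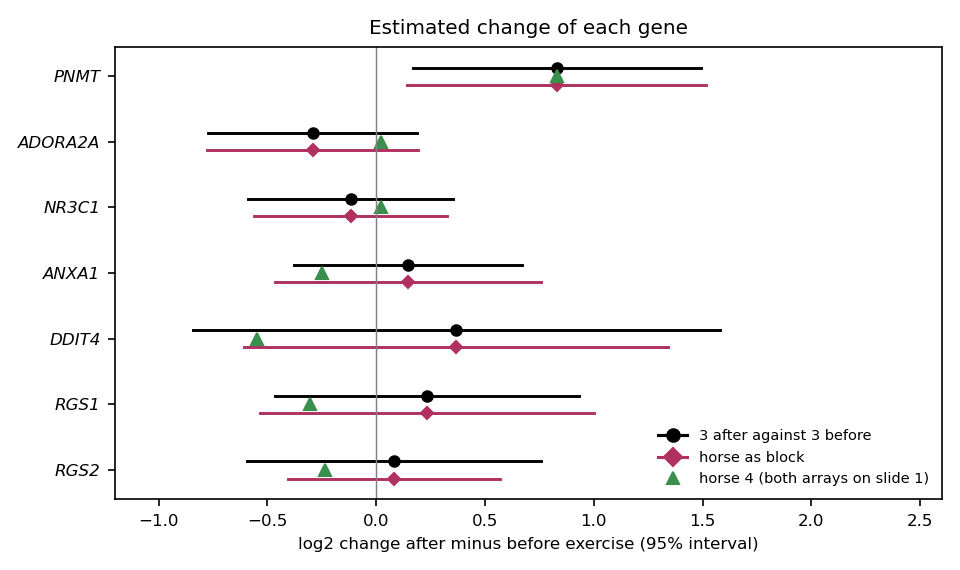
Mean change of each gene (horizontal axis, log2 level after minus before exercise) with its unadjusted 95% interval from limma, without a block (black) and with the horse as a block (red), and the change of horse 4 alone (green triangle). All intervals except those of PNMT include 0. The PNMT probe entered the test through the group in which it was higher, so its intervals are given as a description. The change of horse 4 lies below 0 for ANXA1, DDIT4, RGS1 and RGS2.

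Set side by side, the brightest probes of ANXA1, DDIT4, RGS1 and RGS2 were higher after exercise in horses 1 and 2 and lower in horse 4. This makes 4 of the 7 genes (57.1%). Some of these signs rest on changes close to 0, such as 0.05 for RGS1 in horse 1 and 0.03 for ANXA1 in horse 2. The second RGS1 probe did not show the pattern, with -0.09 in horse 1. Of all probes 24.1% showed this pattern, and the genes were chosen with earlier results of these data known, so the share describes these arrays only. Slide 1 holds the array of horse 4 alone from before exercise. Within it the change was -0.11 for ANXA1, -0.82 for DDIT4, -0.01 for RGS1 and -0.35 for RGS2.

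Some markers of blood cell types showed the same pattern on these arrays and others did not, where 24.1% of all probes did. It was seen in all 3 general white-cell genes measured of 7 listed, in 3 of 4 monocyte markers (CD14, TLR4 and CSF1R; 6 listed), in 2 of 3 T cell markers (CD28 and CD2; 8 listed) and in 2 of 4 NK and cytotoxic cell markers (CCL5 and GZMB; 7 listed). It was seen in 1 of 3 neutrophil markers (LTF; 8 listed), in 1 of 2 platelet markers (ITGA2B; 5 listed), in 1 of 2 epithelial and endothelial markers (VWF; 8 listed), in 0 of 2 B cell markers (6 listed) and in 0 of 2 erythroid markers (5 listed). The erythroid markers had the largest mean changes of the markers measured, with values in horses 1, 2 and 4 of 0.90, 2.80 and 0.42 for HBB and of 0.93, 2.16 and 0.06 for HBA2. CD14, for example, had changes of 0.79, 0.84 and -0.77 in horses 1, 2 and 4. The summed log2 level of the 3 general white-cell genes ranged from 5.96 to 8.73 before and from 7.77 to 7.85 after exercise. That of the 4 monocyte markers ranged from 0.51 to 3.08 before and from 1.74 to 5.22 after. For the 3 T cell markers it was -5.13 to -0.55 before and -3.13 to -1.94 after, and for the 4 NK and cytotoxic markers 8.72 to 12.92 before and 10.64 to 11.87 after. For the 3 neutrophil markers the range was 4.40 to 8.88 before and 7.12 to 8.25 after. The 2 B cell markers summed to -7.26 to -6.07 before and -7.19 to -6.71 after, and the 2 platelet markers to 3.67 to 6.32 and 4.46 to 5.93. The 2 genes measured of the epithelial and endothelial list, VWF and PECAM1, summed to -0.31 to 2.10 before and 0.16 to 1.99 after. The 2 erythroid markers summed to 2.54 to 15.34 before and 7.50 to 15.82 after, lowest in horse 2 before exercise and highest in horse 4 after it. All these marker probes were well above background on all 6 arrays. Their part in the changes of the 7 genes was not tested.

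The other measured genes of cortisol action gave no call either. Of 35 listed genes of the glucocorticoid receptor and its response, 8 had a named probe and 7 could be measured, and 0 passed in either direction, with a median change of 0.10. Besides NR3C1, ANXA1 and DDIT4 these were the chaperones of the receptor HSP90AB1 (0.21, SE 0.35), HSP90AA1 (-0.10, SE 0.29) and PTGES3 (0.10, SE 0.24), and the decoy receptor of interleukin 1, IL1R2 (0.06, SE 0.27). IL1R2, which glucocorticoids induce in neutrophils, had changes of 0.13, 0.48 and -0.42 in horses 1, 2 and 4. HSP90AB1 was higher in all 3 horses, by 0.11, 0.20 and 0.32, as were 17.3% of all probes. HSD11B2, which inactivates cortisol, was well above background on 1 array.

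Around ANXA1, 6 of 16 listed genes of annexins, their partners and formyl peptide receptors were measured, with 0 called. S100A6 had 0.24 (SE 0.22), PLA2G4A, the phospholipase that frees arachidonic acid, 0.19 (SE 0.18), and ANXA2 0.20 (SE 0.24). ALOX5AP, needed for leukotriene synthesis, had 0.15 (SE 0.23), and S100A10, the partner of annexin A2, -0.04 (SE 0.21). PLA2G4A (0.14, 0.04 and 0.37) and ANXA2 (0.15, 0.33 and 0.12) were higher in all 3 horses, whereas ANXA1 was not. Of all probes 17.3% were higher in all 3 horses. Around DDIT4, 3 of 18 listed genes were measured. RPS6KB1, the kinase downstream of mTORC1, had -0.23 (SE 0.32), with -0.47, -0.55 and 0.34 in horses 1, 2 and 4, each opposite in sign to DDIT4. In the list of RGS proteins and G protein subunits only RGS1 and RGS2 of 25 listed genes could be measured.

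The levels of the 7 genes were also compared between the horses, with exercise in the model. None passed limma's F-test, with adjusted p between 0.37 and 0.96 for the brightest probes, where 70 of 29552 probes (0.237%) were called. The smallest p belonged to RGS2, whose mean level was 4.24, 4.73 and 4.90 in horses 1, 2 and 4 (adjusted p = 0.37), and to DDIT4, with 2.41, 2.35 and 3.48 (adjusted p = 0.39). ANXA1 differed least, with 4.29, 4.29 and 4.38 (adjusted p = 0.96). The 4 ANXA1 probes were not alike here, since the 2 dimmer ones had an adjusted p of 0.45.

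For each gene, the named gene with the most similar course over the 6 arrays was sought among 555 others, as the smallest root mean square difference after centring each probe on its own mean. The nearest course to ADORA2A was that of STRN3 (0.054 on the log2 scale, where ADORA2A itself had an SD of 0.23 over the 6 arrays). For NR3C1 it was PPAT (0.069, SD 0.17), for ANXA1 SYNJ2BP (0.098, SD 0.23) and for RGS2 PITPNC1 (0.099, SD 0.34). For DDIT4 it was IGF2 (0.16, SD 0.72), with changes of 0.60, 0.90 and -0.43 in horses 1, 2 and 4, and for RGS1 it was PARS2 (0.17, SD 0.37). For PNMT it was SRSF7 (0.28, SD 0.56). With 6 arrays such likeness is a description of these samples.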

How the data were processed

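Each array was read with Agilent Feature Extraction 10.10.1.1 and the protocol GE1_1100_Jul11, per the file headers. The deposited value is a processed signal, an intensity with background subtracted and not normalized between arrays, per the file headers, and the well-above-background mark is set by the same software. The headers name EquCab1, and no coordinate is used. Here log2 was taken, the 75th percentile over 43803 non-control spots subtracted, outlier-flagged spots (67 to 169 per array) left out and spots of a probe averaged; no member spot was flagged. Of 43603 probes, 1904 matched a RefSeq gene symbol of TB-T2T by unversioned accession. Probes well above background on at least 3 arrays were tested in limma 3.58.1 (R 4.3.3, lmFit and eBayes). Two-sided p were adjusted by Benjamini-Hochberg over all probes, threshold 0.05. The fit was run on simulated data with independent noise. Those data held no horse or slide effect, so they do not check the test under such effects. Each gene is represented by its brightest kept probe.

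The main comparison has no block. The horse number pairs arrays of 1 animal; deviations from group means correlated at 0.36, 0.40 and 0.23 across probes. Genes named were the members, up to 5 measured genes per pathway list by p, and the nearest gene to each member; CD14 and the other markers come from marker lists. The members and lists were chosen with earlier results of these data known. Alternatives were background correction (normexp, offset 50, on median signals), scaling, filters, flagged spots, the first column of 1 array, slide and horse blocks, array weights, probe averaging and omitted arrays. Of the genes this rule takes, some are not reported here.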

Additional observations from a re-analysis of the deposited data

How the results depend on the processing

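Adjusted p for the 7 genes stayed above 0.05 under 22 alternatives (21 for PNMT, which could not be tested where all 6 arrays had to be well above background), except for PNMT with array weights (change 1.17, adjusted p = 0.032; PNMT's adjusted p ran from 0.032 to 0.9999987 over its alternatives), where the count of members called was 1. PNMT kept its sign under all 21, from 0.33 to 1.17, but these all use the same arrays. Its probe entered the test through the group in which it was higher. Its sign and its call with array weights are therefore given as a description. The other 6 genes changed sign in 2 to 7 of 22 alternatives. With the slide as a block, or slide 1 alone, the change was -0.11 for ANXA1, -0.82 for DDIT4, -0.0058 for RGS1 and -0.35 for RGS2; with slide and horse as replicate block, which leaves the pair of horse 4, it was 0.021 for ADORA2A, -0.25 for ANXA1, -0.55 for DDIT4, 0.023 for NR3C1, -0.31 for RGS1 and -0.23 for RGS2. The mean of both ADORA2A probes was 0.30, and RGS2 was -0.020 after quantile normalization. With arrays or horses left out, changes ran from -0.45 to -0.17 for ADORA2A, -0.11 to 0.34 for ANXA1, -0.046 to 0.96 for DDIT4, -0.23 to 0.0024 for NR3C1, 0.55 to 1.11 for PNMT, -0.13 to 0.50 for RGS1 and -0.13 to 0.30 for RGS2.

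Over all probes, 132 were called with the slide as a block, 117 with slide and horse as replicate block, 122 on slide 1 alone and 1638 with array weights. With arrays or horses left out the count ran from 0 to 595, the highest without the array of horse 4 before exercise, which places all arrays before exercise on slide 2. The horse as replicate block changed no call: it gave 0 probes and 0 members, with 1792 probes at an unadjusted p under 0.05. Between horses, 1 probe was called after quantile normalization, 2 without a filter and 1 with flagged spots kept, against 70, and 0 members in each. Taking the median in place of the 75th percentile moved the median change of all probes from 0.04 to 0.13. The cause of these differences was not tested. PNMT, near background, is the member that signal limits most.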
